A study of Mus musculus with 10 samples.

Results

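Interferon-stimulated genes are switched on when cells respond to interferon, and 39 of them were followed in the pressure-overloaded mouse heart. They were taken by gene symbol from a fixed list that covers the transcription factors, RNA sensors, antiviral effectors and GTPases induced by interferon. This list and the wider pathway list used below were chosen with earlier results of these data known. Of the 39 symbols, 38 were found among the 20692 genes of the deposited count table, and 36 had enough reads to be tested (of 12001 genes tested in all). Mx1 and Oas3 were too low, and Ifi27 does not occur as a symbol. Hearts came from 5 FVB/NJ wild-type mice 1 week after transverse aortic constriction (TAC), an operation that narrows the aortic arch and loads the left ventricle with pressure, and from 5 sham-operated FVB/NJ wild-type mice. FVB/NJ is an inbred laboratory strain, and all 10 animals are labelled female and 9 weeks old. Polyadenylated RNA of the frozen ventricular apex was sequenced single-end without strand information, to 7410967 to 9406094 counts per TAC library and 8100749 to 10126574 counts per sham library. The comparison asks which transcripts differ between hearts under 1 week of pressure overload and sham hearts.

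Interferons are cytokines secreted by cells that sense viral or misplaced nucleic acid. Type I interferons bind the receptor chains IFNAR1 and IFNAR2, the kinases JAK1 and TYK2 are activated, and a complex that contains STAT2 and IRF9 binds interferon-stimulated response elements (ISRE) in promoters. Interferon gamma acts mainly through gamma-activated sequences (GAS). In the heart these genes have been studied mainly in viral myocarditis and after myocardial infarction, where macrophages are a known source of the response.

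Libraries differed within groups in ways that bear on these genes. Levels are given in CPM, in which counts are divided by the library total, here adjusted by TMM factors so that a few very abundant genes do not depress the rest. The mean log2 CPM over the 36 tested members was 3.25 to 3.54 in the 5 TAC libraries, 3.36 in sham replicate 3 and 2.49 to 2.73 in the other 4 sham libraries. Sham replicate 3 thus stood apart from its group. It was the highest of the 5 sham libraries in 30 of 36 members (83.3%), where it was highest in 18.7% of all tested genes. Results are therefore given with and without it. The library labelled TAC replicate 1 held 14 counts of Xist, 155 of Ddx3y and 132 of Eif2s3y, whereas the other 9 libraries held at least 1042 counts of Xist and at most 2 of the Y-linked genes, so it went against its female label. The processing notes name other aligner versions for the TAC libraries than for the sham libraries, and any effect of these cannot be told apart from the operation. All 5 sham libraries share one set of notes.

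Markers of other cells moved with the groups. Of all tested genes, 18.8% rose and 17% fell by the test described below. The 6 cardiomyocyte markers were abundant, with summed levels of 48339 to 70931 CPM in TAC and 74279 to 88741 CPM in sham, and 5 of them fell. Fibroblast markers summed to 1190 to 3411 CPM in TAC and 522 to 666 CPM in sham (4 of 5 rose), and endothelial markers to 1150 to 1404 CPM in TAC and 1073 to 1271 CPM in sham (2 of 7 rose). The 12 macrophage and monocyte markers in the table summed to 402 to 663 CPM in TAC and to 246 to 287 CPM in sham, and all 9 that were tested rose. The 3 general leukocyte markers summed to 51.4 to 110 CPM in TAC and to 29.8 to 36.9 CPM in sham, and all 3 rose. For fibroblast, macrophage and leukocyte markers the highest TAC sum was that of the library labelled TAC replicate 1, and the other 4 TAC libraries reached 1397 CPM for fibroblast, 425 CPM for macrophage and monocyte, and 66.2 CPM for leukocyte markers. The 8 T and NK cell markers summed to 35.9 to 44.2 CPM in TAC and 17.1 to 30.1 CPM in sham. Most of that was Thy1, which other cells also express; Thy1 and Cd4 were the 2 tested and rose, and Klrb1c had no count in any library. Plasmacytoid dendritic cell markers stayed at or below 0.462 CPM in TAC and 0.838 CPM in sham, B cell markers at or below 1.503 CPM in TAC and 1.37 CPM in sham, and all were too low to test. The 4 neutrophil markers summed to 2.96 to 6.79 CPM in TAC and 2.07 to 7.78 CPM in sham; the only one tested, Csf3r, rose, and Ly6g had no count. Sham replicate 3 had macrophage and monocyte markers at 287 CPM (246 to 286 CPM in the other sham libraries), leukocyte markers at 36.9 CPM (29.8 to 35.7 CPM), T and NK cell markers at 30.1 CPM (17.1 to 29.6 CPM) and plasmacytoid dendritic cell markers at 0.129 CPM (0.343 to 0.838 CPM). Its cardiomyocyte markers were also the highest of the sham libraries, at 88741 CPM (74279 to 86011 CPM in the other sham libraries). Its fibroblast, endothelial, neutrophil and B cell sums lay within the range of the other sham libraries. In these bulk samples a change in the number of cells of a type and a change in RNA per cell cannot be told apart. The part of these cells in the results below was not tested.

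**Figure D1:**
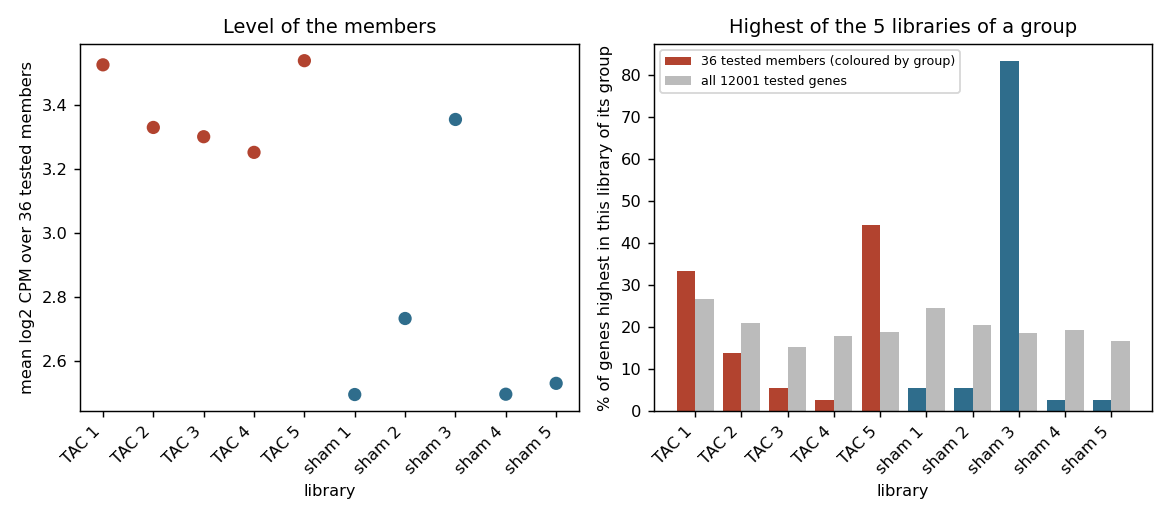
Left, mean log2 CPM over the 36 tested interferon-stimulated genes in each library. Right, the share of these genes (coloured) and of all 12001 tested genes (grey) that were highest in a given library among the 5 of its group. Sham replicate 3 lies at 3.36, within the 3.25 to 3.54 of the TAC libraries, and holds the sham maximum of 83.3% of the members.

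Most of the interferon-stimulated genes tested were higher in TAC hearts. By edgeR's quasi-likelihood test, 21 of the 36 tested members rose at an adjusted p under 0.05 (58.3%, where 18.8% of all tested genes rose), and 15 did not pass. None fell, where 17% of all tested genes fell; none was lower at an unadjusted p under 0.05 either, nor by DESeq2 or limma-voom. All 36 log2 fold changes were positive, between 0.05 and 1.20, with a median of 0.66 against a median of 0.00 over all tested genes. The mean log2 CPM over the members was 3.39 ± 0.13 in TAC and 2.72 ± 0.37 in sham (SD, n = 5 each). In 10 members every TAC value exceeded every sham value (27.8%, against 12.2% of all tested genes). In none did every TAC library lie below, which was so for 11.6% of all tested genes.

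The count depended on sham replicate 3. Without it, 29 of 36 rose with a median of 0.83 (16.6% of all tested genes rose), and the 21 members called with all libraries were among them. With it set aside, all TAC libraries lay above the other 4 sham libraries in 25 members (69.4%, against 13.5% of all tested genes). Sham replicate 3 was singled out by its high values in these same members, so leaving it out raises their counts by the choice itself. The shares of all tested genes were not chosen in this way, so the counts without it are description and carry no test. The same holds for fold changes and adjusted p-values without it that are given for single members below. Where a member is said to pass without it, the choice of library helped it pass. Without the library labelled TAC replicate 1, 17 of 36 rose (16.7% of all tested genes rose), and Gbp6, Ifih1, Irgm1 and Oasl1 lost their call. Such a loss was not particular to this library. Without sham replicate 4, 16 of 37 rose, where 1876 of all 12094 tested genes rose. Without both libraries, 28 of 35 rose (15.2% of all tested genes rose), and these included all 21. Within TAC, replicate 5 was the highest library in 16 members (44.4%, against 18.8% of all tested genes) and replicate 1 in 12 (33.3%, against 26.8%).

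**Figure D2:**
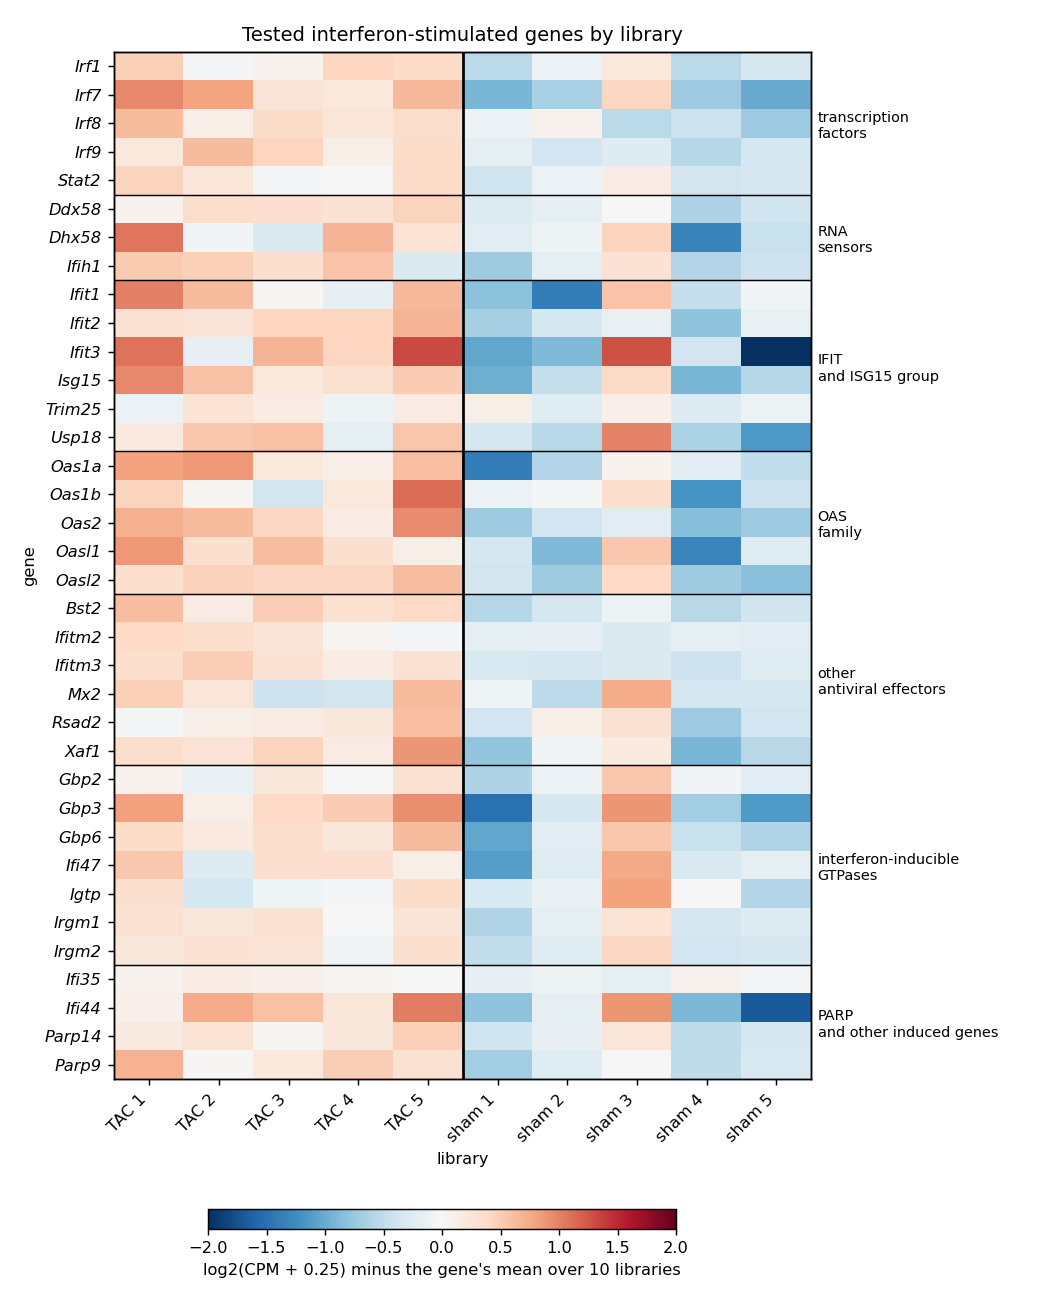
Each row is a tested interferon-stimulated gene, grouped by role, and each column a library; colour is log2(CPM + 0.25) minus the gene's mean over the 10 libraries. TAC columns are mostly red and sham columns mostly blue, except sham replicate 3, which was the highest sham library in 30 of 36 genes.

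Promoter sequences were looked at for what the members share beyond the list. Entries of 250 bases before to 50 after the start site were found for 29 of the 39 members in RefSeq (GRCm38.p6, the C57BL/6J genome, not FVB/NJ). The ISRE core GAAANNGAA, or TTCNNTTTC on the other strand, occurred in 19 of 29 members (65.5%), and in 9.76% of the promoters of 27025 genes. The GAS core TTCNNNGAA, which reads the same on both strands, occurred in 9 of 29 (31%), and in 9.55% of all. Matches of the cores can overlap each other. The 6 members with neither core (20.7%) show only that these letters are not in this window. The 6 promoters below were chosen to show the range of arrangements among genes described next, written 5′ to 3′ on the gene's strand, with each match in capitals and overlapping matches as 1 run.
Isg15, chr4:156200769-156201068, minus strand: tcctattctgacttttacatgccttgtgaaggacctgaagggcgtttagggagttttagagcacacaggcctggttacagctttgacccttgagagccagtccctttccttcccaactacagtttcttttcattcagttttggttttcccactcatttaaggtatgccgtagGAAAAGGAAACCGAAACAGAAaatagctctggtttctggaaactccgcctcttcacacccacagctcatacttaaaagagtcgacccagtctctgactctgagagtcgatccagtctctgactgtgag
Ifit3, chr19:34583279-34583578, plus strand: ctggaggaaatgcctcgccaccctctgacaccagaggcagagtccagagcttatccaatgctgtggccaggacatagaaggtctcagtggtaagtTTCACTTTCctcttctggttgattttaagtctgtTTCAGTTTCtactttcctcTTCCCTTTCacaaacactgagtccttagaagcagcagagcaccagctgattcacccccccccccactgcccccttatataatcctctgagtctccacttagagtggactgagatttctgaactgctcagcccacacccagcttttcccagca
Bst2, chr8:71537423-71537722, minus strand: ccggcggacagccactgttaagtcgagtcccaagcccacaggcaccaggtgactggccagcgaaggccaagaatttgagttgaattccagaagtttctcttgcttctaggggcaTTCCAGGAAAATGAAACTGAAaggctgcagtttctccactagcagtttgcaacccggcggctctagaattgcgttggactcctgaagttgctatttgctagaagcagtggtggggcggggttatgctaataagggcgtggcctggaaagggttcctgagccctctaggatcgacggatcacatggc
Ifitm3, chr7:141010695-141010994, minus strand: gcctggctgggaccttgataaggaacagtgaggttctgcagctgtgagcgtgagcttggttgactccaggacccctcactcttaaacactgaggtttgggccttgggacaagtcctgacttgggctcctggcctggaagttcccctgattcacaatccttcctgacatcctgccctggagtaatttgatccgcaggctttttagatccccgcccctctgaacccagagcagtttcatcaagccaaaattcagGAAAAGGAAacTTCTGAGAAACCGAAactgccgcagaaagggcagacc
Irgm2, chr11:58214727-58215026, plus strand: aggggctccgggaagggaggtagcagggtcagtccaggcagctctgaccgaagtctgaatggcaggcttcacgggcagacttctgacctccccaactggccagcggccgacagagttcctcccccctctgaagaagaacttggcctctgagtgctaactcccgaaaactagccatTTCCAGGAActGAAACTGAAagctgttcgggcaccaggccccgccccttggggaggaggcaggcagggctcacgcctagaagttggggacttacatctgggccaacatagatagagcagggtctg
Irf1, chr11:53769764-53770063, plus strand: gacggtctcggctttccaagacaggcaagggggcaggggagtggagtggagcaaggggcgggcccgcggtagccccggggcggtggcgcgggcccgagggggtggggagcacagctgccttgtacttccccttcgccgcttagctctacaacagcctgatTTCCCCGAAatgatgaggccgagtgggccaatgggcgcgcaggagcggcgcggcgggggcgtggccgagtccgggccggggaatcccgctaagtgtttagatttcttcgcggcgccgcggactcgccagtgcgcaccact
Isg15 held 3 overlapping ISRE cores, the first starting 78 and the last starting 66 bases before its start site. Ifit3 held 3 ISRE cores, the first starting 155 and the last starting 102 bases before its start site. Bst2 had 2 ISRE cores and 1 GAS core that run into each other. Ifitm3 had its 2 ISRE cores and 1 GAS core just after the start site. Irgm2 held 1 of each, and the printed entry of Irf1 held only a GAS core. Another Irf1 entry, from a later start site and not printed, held neither core. A match is a description of letters, not a measured binding site.

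All 5 transcription factors rose (18.8% of all tested genes did), with a median log2 fold change of 0.68. Irf7 (ENSMUSG00000025498), the factor that amplifies type I interferon production, had 16.9, 14.8, 10.2, 9.92 and 13.5 CPM in TAC replicates 1 to 5, against 4.40, 5.37, 11.4, 5.03 and 4.12 CPM in sham replicates 1 to 5, the order used throughout. The third sham library was within the TAC range and far above the other 4 sham libraries. The gene rose with all libraries (log2 fold change 1.12 ± 0.25, adjusted p = 0.00427), and more without sham replicate 3 (log2 fold change 1.46 ± 0.18, adjusted p = 0.000245). Irf9, the DNA-binding partner of STAT2, had 22.4, 30.3, 26.3, 21.1 and 25.1 CPM in TAC, against 16.9, 14.9, 16.3, 12.9 and 15.1 CPM in sham. The groups did not overlap, and sham replicate 3 was an ordinary sham library here (log2 fold change 0.71 ± 0.11, adjusted p = 0.000289). Irf8, a factor of macrophages and dendritic cells, had 21.8, 15.2, 18.1, 16.6 and 17.9 CPM in TAC, against 12.8, 14.9, 9.56, 10.3 and 8.35 CPM in sham. The groups were apart by a small margin, and sham replicate 3 was among the lower sham libraries (log2 fold change 0.68 ± 0.15, adjusted p = 0.00324). Irf1, which responds chiefly to interferon gamma and carries the GAS core printed above, had 38.6, 26.9, 29.3, 37.5 and 36.2 CPM in TAC, against 19.1, 25.6, 32.2, 19.0 and 22.3 CPM in sham. Only sham replicate 3 lay inside the TAC range (log2 fold change 0.52 ± 0.15, adjusted p = 0.0135). Stat2, which acts in type I signalling, had 33.2, 28.8, 23.9, 24.4 and 31.8 CPM in TAC, against 18.4, 22.6, 27.4, 18.9 and 19.3 CPM in sham. Sham replicate 3 again lay among the TAC libraries (log2 fold change 0.42 ± 0.12, adjusted p = 0.0186).

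Of the 3 cytoplasmic RNA sensors, 2 rose (66.7%, against 18.8% of all tested genes). Ddx58 encodes RIG-I, which binds viral RNA ends, and had 14.9, 18.1, 18.0, 17.3 and 19.3 CPM in TAC, against 11.6, 12.4, 14.1, 9.15 and 10.6 CPM in sham. The groups did not overlap (log2 fold change 0.60 ± 0.11, adjusted p = 0.00138). Ifih1 encodes MDA5, a sensor of long double-stranded RNA, and had 7.51, 7.20, 6.51, 7.73 and 4.17 CPM in TAC, against 3.04, 4.51, 6.33, 3.32 and 3.78 CPM in sham. TAC replicate 5 lay among the sham libraries and sham replicate 3 just below the other 4 TAC libraries (log2 fold change 0.67 ± 0.22, adjusted p = 0.0278). Dhx58 encodes LGP2, which tunes both sensors, and had 4.74, 2.04, 1.69, 3.55 and 2.63 CPM in TAC, against 1.78, 1.95, 2.97, 0.686 and 1.49 CPM in sham. The groups overlapped widely and the gene missed the threshold with all libraries (log2 fold change 0.75 ± 0.34, adjusted p = 0.108), but passed without sham replicate 3 (log2 fold change 0.99 ± 0.35, adjusted p = 0.0481). Of its exon stretches of 50 bases, 2.9% also occur in the antisense gene Dhx58os, and reads there cannot be told apart.

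Among the IFIT proteins, which bind viral RNA, and the ISG15 group, 2 of 6 rose (33.3%, against 18.8% of all tested genes). The median log2 fold change was nevertheless 0.87. Ifit2 had 10.2, 9.79, 11.1, 11.1 and 13.3 CPM in TAC, against 5.03, 6.34, 7.36, 4.57 and 7.32 CPM in sham. The groups were apart (log2 fold change 0.86 ± 0.15, adjusted p = 0.000701). Isg15 (ENSMUSG00000035692), a ubiquitin-like protein that is attached to other proteins, had 10.4, 7.88, 6.03, 6.47 and 7.46 CPM in TAC, against 2.52, 3.66, 6.84, 2.63 and 3.43 CPM in sham. Sham replicate 3 lay inside the TAC range and the other 4 sham libraries below it (log2 fold change 1.02 ± 0.25, adjusted p = 0.00673; log2 fold change 1.32 ± 0.20, adjusted p = 0.000647 without sham replicate 3). Ifit1 had 3.58, 2.72, 1.69, 1.46 and 2.74 CPM in TAC, against 0.838, 0.488, 2.58, 1.14 and 1.602 CPM in sham. Its TAC and sham values overlapped, sham replicate 3 being the highest of the sham libraries. With all libraries the gene missed the threshold (log2 fold change 0.88 ± 0.37, adjusted p = 0.0797), and without sham replicate 3 it passed (log2 fold change 1.24 ± 0.36, adjusted p = 0.0201). Ifit3 (ENSMUSG00000074896) had 3.58, 1.36, 2.65, 2.19 and 4.28 CPM in TAC, against 0.629, 0.732, 4.13, 1.14 and 0.114 CPM in sham. Here sham replicate 3 was almost as high as the highest TAC library, and the other sham libraries lay below every TAC library. Its log2 fold change was 1.12 ± 0.55 (adjusted p = 0.131), and 2.10 ± 0.44 without sham replicate 3 (adjusted p = 0.0044). Of its 50-base exon stretches, 51.2% also occur in Ifit3b, so its reads are uncertain. Usp18, the protease that removes ISG15, had 2.43, 3.13, 3.25, 1.77 and 3.18 CPM in TAC, against 1.57, 1.34, 4.39, 1.26 and 0.801 CPM in sham. No TAC library reached sham replicate 3, and the call again depended on it (log2 fold change 0.57 ± 0.37, adjusted p = 0.256; log2 fold change 1.12 ± 0.26, adjusted p = 0.00713 without it). Trim25, a ubiquitin ligase that acts with RIG-I, lay between 47.7 and 62.7 CPM in TAC and between 43.1 and 56.3 CPM in sham and missed the threshold (log2 fold change 0.15 ± 0.10).

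In the OAS family, whose active enzymes make the second messenger that activates RNase L, 4 of 5 tested genes rose. This was 80%, against 18.8% of all tested genes, and the family had the highest median of any role (0.90). Oas2 (ENSMUSG00000032690) had 17.8, 16.9, 14.5, 12.1 and 20.96 CPM in TAC, against 6.39, 8.17, 9.30, 5.83 and 6.41 CPM in sham. Every TAC library exceeded every sham library, with sham replicate 3 the highest of the sham libraries (log2 fold change 1.19 ± 0.16, adjusted p = 0.000183). Oasl2 had 11.3, 12.5, 12.1, 12.0 and 13.8 CPM in TAC, against 6.92, 5.37, 11.9, 5.38 and 4.92 CPM in sham. Sham replicate 3 matched the TAC libraries and the other sham libraries did not (log2 fold change 0.85 ± 0.20, adjusted p = 0.0055; log2 fold change 1.12 ± 0.12, adjusted p = 0.000146 without it). Oas1a had 2.31, 2.45, 1.45, 1.36 and 1.98 CPM in TAC, against 0.314, 0.732, 1.29, 1.03 and 0.801 CPM in sham, with no overlap (log2 fold change 1.19 ± 0.31, adjusted p = 0.0093). Its reads may be shared, since 57.6% of its exon stretches also occur in Oas1g. Oasl1 had 3.47, 2.31, 2.89, 2.30 and 1.98 CPM in TAC, against 1.36, 0.854, 2.71, 0.572 and 1.49 CPM in sham. Sham replicate 3 lay among the TAC libraries. The call was close to the threshold (log2 fold change 0.90 ± 0.32, adjusted p = 0.0441). It ended under 9 of 19 alternative settings or sets of libraries, among them without TAC replicate 1 (adjusted p = 0.0955). Oas1b, between 1.81 and 5.49 CPM in TAC and 0.915 and 3.10 CPM in sham, missed the threshold (log2 fold change 0.66 ± 0.33, adjusted p = 0.136). Oas3 was not tested, with 1.04 to 2.08 CPM in TAC and 0.229 to 1.55 CPM in sham.

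Of the 6 other antiviral effectors tested, 4 rose (66.7%, against 18.8% of all tested genes). Per kilobase of exon, Ifitm3, Ifitm2 and Bst2 had the highest levels of all members. Ifitm3 (ENSMUSG00000025492), an inhibitor of virus entry, had 154, 172, 149, 135 and 149 CPM in TAC, against 98.9, 96.6, 99.7, 91.7 and 103 CPM in sham. The groups lay far apart, sham replicate 3 was unremarkable and the spread was small (log2 fold change 0.63 ± 0.06, adjusted p = 3.46e-05). Ifitm2, its neighbour on chromosome 7 with a related role, had 127, 122, 114, 99.2 and 94.7 CPM in TAC, against 83.2, 85.8, 78.7, 84.4 and 82.5 CPM in sham. The groups did not overlap (log2 fold change 0.42 ± 0.08, adjusted p = 0.00122), but 48.5% of its exon stretches occur elsewhere in annotated exons. Bst2 (ENSMUSG00000046718) encodes tetherin, which holds budding virus at the cell surface, and had 24.0, 17.4, 21.9, 19.3 and 20.5 CPM in TAC, against 10.4, 12.1, 14.5, 10.5 and 11.7 CPM in sham. The highest sham library, replicate 3, stayed below the lowest TAC library (log2 fold change 0.81 ± 0.11, adjusted p = 0.000175). Per kilobase of exon, mean levels were 224 CPM in TAC and 145 CPM in sham for Ifitm3, 170 CPM in TAC and 127 CPM in sham for Ifitm2, and 22.9 CPM in TAC and 13.1 CPM in sham for Bst2. Xaf1, an inducible pro-apoptotic factor, had 11.3, 10.7, 12.2, 9.92 and 16.6 CPM in TAC, against 5.03, 8.54, 10.2, 4.57 and 5.95 CPM in sham. Only sham replicate 3 lay inside the TAC range (log2 fold change 0.84 ± 0.21, adjusted p = 0.00822). Rsad2 encodes viperin, a radical SAM enzyme with antiviral activity. It lay between 8.32 and 13.0 CPM in TAC and between 5.03 and 10.5 CPM in sham, and missed the threshold with all libraries (log2 fold change 0.43 ± 0.19, adjusted p = 0.0929), but passed without sham replicate 3 (log2 fold change 0.57 ± 0.18, adjusted p = 0.0285). The dynamin-like GTPase Mx2 had 2.43, 2.04, 1.21, 1.25 and 2.74 CPM in TAC, against 1.57, 1.10, 2.97, 1.26 and 1.26 CPM in sham, and missed the threshold with and without sham replicate 3 (log2 fold change 0.26 ± 0.32, adjusted p = 0.568; log2 fold change 0.56 ± 0.29, adjusted p = 0.167). Its highest value of all 10 was that of sham replicate 3. Its relative Mx1 gave 16, 4, 1, 3 and 2 counts in TAC and 4, 1, 5, 0 and 1 in sham, too few to test. The 3 counts that a 0 allows are 0.343 CPM in that library.

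Interferon-inducible GTPases, which attack the vacuoles of intracellular microbes, had the lowest median log2 fold change of the 7 roles (0.43). Of these 7 genes, 2 rose (28.6%, against 18.8% of all tested genes). In none did every TAC library lie above every sham library, which was so for 12.2% of all tested genes. Gbp6 had 14.8, 13.0, 14.6, 13.5 and 17.8 CPM in TAC, against 5.45, 9.76, 16.7, 8.35 and 7.44 CPM in sham. Sham replicate 3 was above 4 of the 5 TAC libraries. The call (log2 fold change 0.65 ± 0.23, adjusted p = 0.0392) was lost under 8 of 19 alternatives, among them without TAC replicate 1 (adjusted p = 0.0546). The row called Gbp6 carries an identifier that GENCODE M21 names Gbp7. Irgm1 had 14.9, 14.1, 14.9, 12.0 and 14.4 CPM in TAC, against 7.86, 10.6, 14.6, 9.49 and 10.1 CPM in sham (log2 fold change 0.43 ± 0.14, adjusted p = 0.0308). Its lowest TAC library, replicate 4, stood apart from the other TAC libraries but above 4 of the 5 sham libraries. Gbp3 had 10.98, 6.66, 8.07, 8.77 and 11.7 CPM in TAC, against 1.99, 4.76, 11.4, 3.66 and 2.63 CPM in sham. Sham replicate 3 reached the top TAC libraries, and the gene missed the threshold with all libraries (log2 fold change 0.96 ± 0.36, adjusted p = 0.0525). Without it the values, as description only, were a log2 fold change of 1.52 ± 0.24 and an adjusted p of 0.000946. Irgm2 had 9.48, 9.92, 9.76, 7.83 and 10.2 CPM in TAC, against 5.66, 6.83, 10.8, 6.18 and 6.41 CPM in sham. The highest of all 10 libraries was sham replicate 3, and the 5 TAC libraries exceeded the rest (log2 fold change 0.40 ± 0.17, adjusted p = 0.0751 with all; log2 fold change 0.59 ± 0.12, adjusted p = 0.00339 without it). Igtp had 7.98, 4.89, 5.91, 6.16 and 8.23 CPM in TAC, against 5.03, 5.73, 11.2, 6.29 and 4.12 CPM in sham. It showed no difference beyond the spread, with sham replicate 3 again the highest of all 10 (log2 fold change 0.05 ± 0.24, adjusted p = 0.886; log2 fold change 0.33 ± 0.18, adjusted p = 0.19 without it). Gbp2 lay between 10.6 and 14.4 CPM in TAC and between 7.55 and 17.0 CPM in sham, and Ifi47 between 0.951 and 1.85 CPM in TAC and between 0.419 and 2.20 CPM in sham. Both missed the threshold with and without sham replicate 3. Igtp and Irgm2 overlap on chromosome 11, so some reads of each may belong to the other.

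The remaining members are ADP-ribosyltransferases and less studied induced genes. Parp9 had 19.8, 12.4, 14.1, 17.1 and 15.0 CPM in TAC, against 7.34, 10.2, 12.1, 8.46 and 9.73 CPM in sham, with no overlap (log2 fold change 0.72 ± 0.15, adjusted p = 0.00248). Of its exon stretches, 7.71% also occur in Dtx3l. Its partner Parp14, another enzyme of this family, had 32.1, 34.2, 28.8, 33.3 and 39.8 CPM in TAC, against 21.6, 25.2, 33.6, 20.02 and 22.4 CPM in sham. Sham replicate 3 lay among the TAC libraries (log2 fold change 0.46 ± 0.13, adjusted p = 0.0137; log2 fold change 0.59 ± 0.10, adjusted p = 0.00121 without it). Ifi44 was low, at 1.39, 2.31, 2.05, 1.57 and 2.85 CPM in TAC, against 0.629, 1.10, 2.58, 0.572 and 0.229 CPM in sham. Only sham replicate 3 reached into the TAC range, and the gene missed the threshold with all libraries (log2 fold change 1.03 ± 0.44, adjusted p = 0.0864) but passed without sham replicate 3 (log2 fold change 1.67 ± 0.37, adjusted p = 0.00522). Ifi35 differed little, with 23.3 to 25.8 CPM in TAC and 20.4 to 24.8 CPM in sham (log2 fold change 0.15 ± 0.07, adjusted p = 0.115), and 10.4% of its exon stretches also occur in Gm11626.

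**Figure D3:**
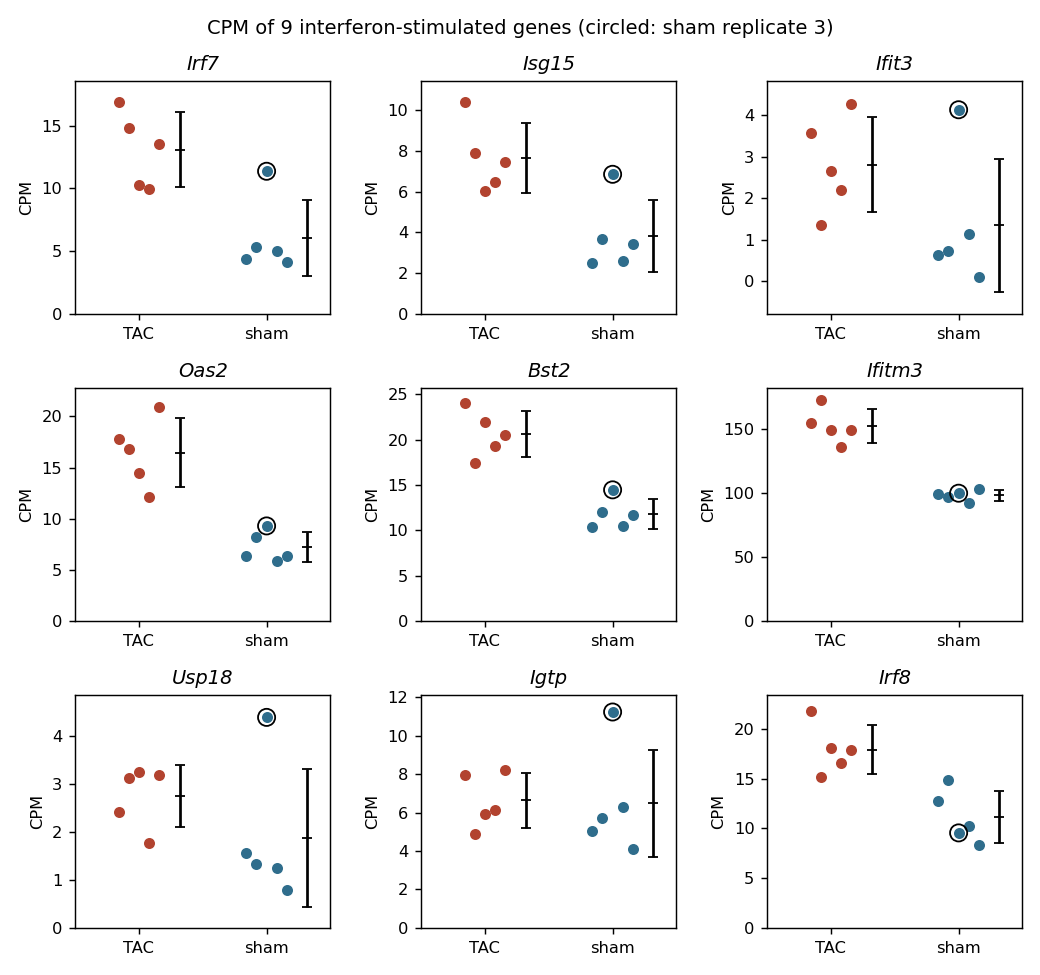
CPM of 9 interferon-stimulated genes in each library, with mean and SD beside each group (n = 5 each); sham replicate 3 is circled. It lies within the TAC range in Irf7, Isg15 and Ifit3, above it in Usp18 and Igtp, and below it in Ifitm3, Bst2, Oas2 and Irf8. The axis of Ifit3 runs below 0 only to show its SD bar.

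Genes of every role were high in sham replicate 3. Against the mean of the other 4 sham libraries its median log2 difference was 0.77 over the members and 0.005 over all tested genes. It was the highest sham library in 7 of 7 GTPases (median 1.07), 5 of 5 OAS genes (0.79), 3 of 3 RNA sensors (0.77), 5 of 6 of the IFIT and ISG15 group (1.19), 4 of 6 other effectors (0.51), 3 of 5 transcription factors (0.47) and 3 of 4 of the rest (0.52). Of the 12001 tested genes, Ifit3 had the largest difference of this kind, 2.46. Sham replicate 3 lay within or above the TAC range in 25 members (69.4%, against 71.7% of all tested genes) and above every TAC library in 6 (16.7%, against 28% of all): Irgm2, Usp18, Ifi47, Gbp2, Mx2 and Igtp. These shares are near or under those of all genes. It was the lowest sham library in 2 (5.56%, against 18.8% of all), Ifitm2 and Ifi35. Among the 100 tested genes with the largest differences, 14 were members and 12 came from the wider pathway list described next. These ranks were read from the same libraries that show the pattern, and carry no test.

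**Figure D4:**
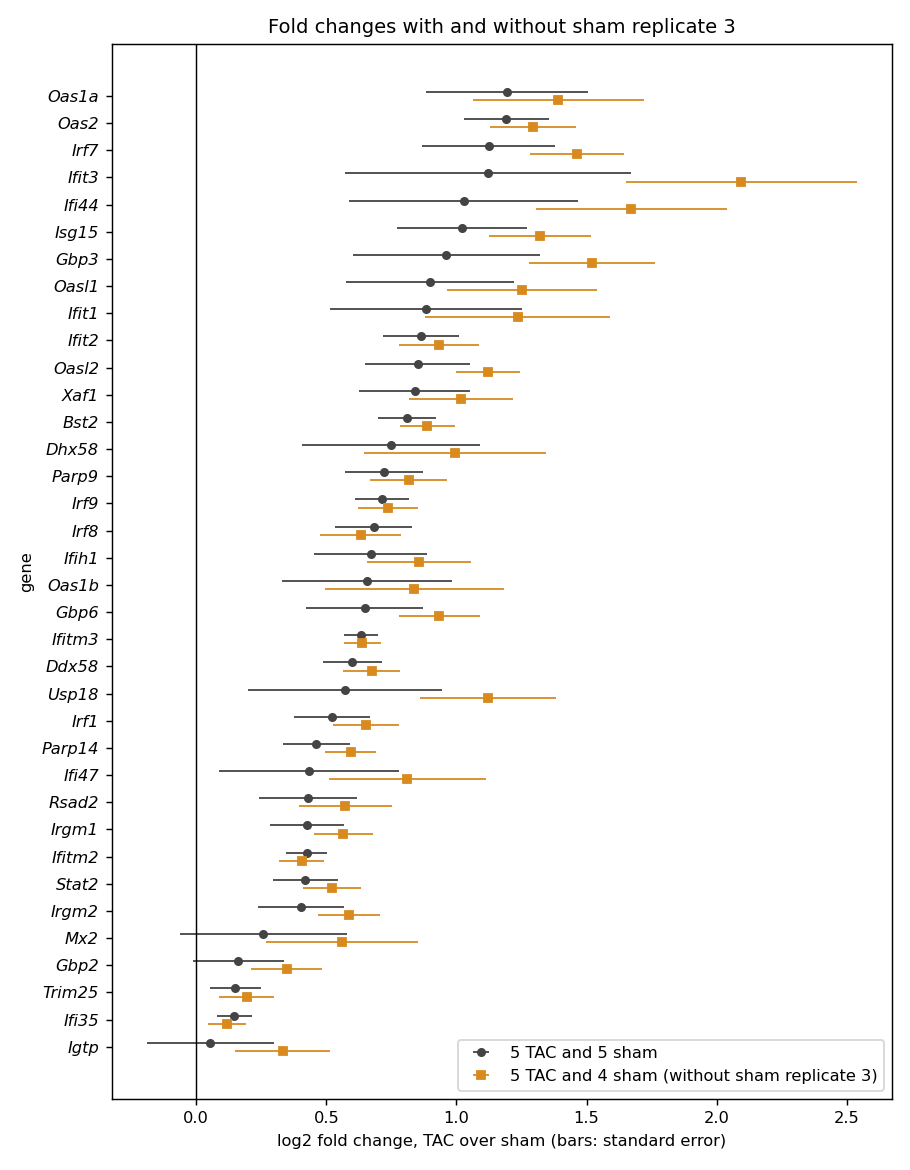
Log2 fold change of TAC over sham for the 36 tested interferon-stimulated genes, with all 10 libraries (circles) and without sham replicate 3 (squares); bars are standard errors. The point without sham replicate 3 lies further from 0 in most genes, and in Ifit3 it is at 2.10 in place of 1.12; Irf8, Ifitm2 and Ifi35 moved the other way.

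Other genes of the interferon pathway were read from a list of genes that are not members, 129 of them in the table and 92 tested. Of these, 43 rose (46.7%, against 18.8% of all tested genes), 6 fell (17% of all tested genes fell) and 43 missed the threshold. Their median log2 fold change was 0.27. Without sham replicate 3, 47 of 93 rose (50.5%, against 16.6% of all). Without TAC replicate 1, 36 of 92 rose (39.1%, against 16.7% of all). No interferon was tested: of 18 interferon genes, 16 had no count in any library, Ifnb1 and Ifng among them. A count of 0 allows up to 0.313 to 0.408 CPM in a TAC library and 0.314 to 0.387 CPM in a sham library. Ifnz had 10, 8, 10, 8 and 11 counts in TAC and 8, 8, 6, 6 and 5 counts in sham, and its identifier has no match in GENCODE M21.

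Of 9 receptors and receptor kinases, 3 rose (33.3%, against 18.8% of all tested genes) and 1 fell (against 17% of all), with a median log2 fold change of 0.06. Ifnar1, a chain of the type I receptor, had 35.9, 29.1, 33.5, 32.4 and 36.7 CPM in TAC, against 24.2, 29.9, 22.9, 24.2 and 27.5 CPM in sham (log2 fold change 0.38 ± 0.09, adjusted p = 0.00422). Only its second sham library reached into the TAC range. The kinase Tyk2 had 34.6, 28.5, 29.9, 30.5 and 32.1 CPM in TAC, against 25.7, 26.9, 25.6, 25.7 and 22.4 CPM in sham, with no overlap (log2 fold change 0.30 ± 0.07, adjusted p = 0.00525). Ifngr1, of the interferon gamma receptor, rose by a log2 fold change of 0.23 and Il10rb fell by 0.24 (a call lost without either sham replicate 3 or TAC replicate 1), while Ifnar2 (0.20), Ifngr2 (-0.06) and Jak1 (0.04) did not pass. In 0 of the 9 was sham replicate 3 the highest sham library. Among factors and inhibitors, 5 of 17 rose (29.4%, against 18.8% of all tested genes) and 2 fell (against 17% of all). Their median log2 fold change was 0.01. Without sham replicate 3, 2 rose (11.8%, against 16.6% of all), and without TAC replicate 1 the only one was Ptpn1 (5.88%, against 16.7% of all). Socs3, a feedback inhibitor of cytokine signalling, had 41.5, 48.0, 20.01, 17.5 and 10.9 CPM in TAC, against 13.3, 14.0, 10.3, 9.26 and 18.1 CPM in sham. The TAC libraries spread widely and TAC replicates 4 and 5 were within the sham range (log2 fold change 1.07 ± 0.35, adjusted p = 0.0304). Socs1, Irf5 and Ptpn1 rose with all libraries (log2 fold changes 0.78, 0.69 and 0.24). The calls of Socs3, Socs1 and Irf5 ended both without sham replicate 3 (adjusted p = 0.0669, 0.0945 and 0.0669) and without TAC replicate 1 (0.0766, 0.0714 and 0.0733). Pias1 and Ptpn11 fell (-0.42 and -0.25), and Stat3 (-0.05) and Irf3 (-0.12) did not pass.

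Of 16 tested genes of nucleic acid sensing, 7 rose (43.8%, against 18.8% of all tested genes) and 1 fell (against 17% of all). Ikbke, a kinase that activates IRF3 and IRF7, Adar, an RNA-editing enzyme, and the adaptors Ticam1 and Traf3 rose, with log2 fold changes of 0.90, 0.47, 0.42 and 0.36. Mavs, the mitochondrial adaptor of RIG-I and MDA5, fell by 0.45 on the log2 scale (adjusted p = 0.000825). Of 50 further interferon-induced genes, 28 rose (56%, against 18.8% of all tested genes) and 2 fell (against 17% of all). Ifi27l2a had 14.6, 18.8, 14.3, 13.3 and 16.0 CPM in TAC, against 4.30, 4.27, 4.52, 3.66 and 5.38 CPM in sham. Its groups were far apart, and sham replicate 3 lay within the sham range (log2 fold change 1.79 ± 0.13, adjusted p = 7.31e-06). Lgals3bp, a secreted glycoprotein, had 92.4, 83.2, 84.2, 80.3 and 80.8 CPM in TAC, against 29.9, 36.3, 41.5, 33.5 and 34.2 CPM in sham, also without overlap (log2 fold change 1.26 ± 0.08, adjusted p = 2.27e-06). Lgals9, a galectin, and Ly6e, a surface protein, rose by log2 fold changes of 0.94 and 0.56. Gbp11 ran the other way, with 27.7, 35.5, 32.5, 33.8 and 34.2 CPM in TAC, against 73.2, 51.5, 44.0, 55.7 and 63.3 CPM in sham (log2 fold change -0.82 ± 0.12, adjusted p = 0.000285). Every TAC library lay below every sham library. The identifier of the Gbp11 row has no match in GENCODE M21, so what its reads count is uncertain. The row called Ifi27l1 carries the identifier that GENCODE M21 names Ifi27, and rose (log2 fold change 0.51 ± 0.09, adjusted p = 0.00104) with no overlap. It had 26.7, 20.7, 25.1, 23.9 and 22.5 CPM in TAC, against 14.3, 17.9, 16.1, 16.2 and 19.0 CPM in sham.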

How the data were processed

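Polyadenylated RNA of 5 TAC and 5 sham hearts was sequenced. The authors deposited 1 table of whole-number read counts per Ensembl gene, not normalized, for all 10 libraries. The submitters' processing notes list Bowtie, TopHat 1.3.0, HTSeq, DESeq, edgeR, mm9 and mm10 for TAC libraries and Bowtie2, TopHat2 2.0.10, TopHat, HTSeq, DESeq, edgeR and mm10 for sham libraries, and per the file headers gene IDs are of GRCm37; settings of the counter: not given in the sources used here. Sham status comes from the series design text. A row of totals names no gene and was left out. Library pairs of a group gave chi-square values per gene between 2.66 and 25.1 (20 pairs), so none looked like the same library sequenced again. These values cannot show whether libraries came from different animals. No animal identifiers are given, so p-values measure the spread between these libraries.

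Differences were tested with edgeR 4.0.16 (R 4.3.3, limma 3.58.1). Its quasi-likelihood test was fitted once to all tested genes, with TMM factors and trended dispersion, after filterByExpr removed low genes (count minimum 10, total minimum 15). The model held only the group, and p-values were adjusted by Benjamini-Hochberg with a threshold of 0.05; log2 CPM used a prior count of 2. The method was tested on simulated data. Gene lengths, exon overlaps and shared stretches of 50 bases came from GENCODE M21 (GRCm38) by Ensembl ID (94.6% matched), and promoters from RefSeq GRCm38.p6. Alternatives were library totals, relative log expression factors, DESeq2 1.42.0, limma-voom, robust estimates, other count filters, a replicate block, and leaving out libraries.

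The members and gene lists were chosen with earlier results of these data known. Members that passed, did not overlap or had a library standing apart by Dixon's criterion (0.71 for 5 values) are given per library; of each pathway list, the 5 smallest adjusted p-values and a fixed set of signalling genes could be named; 1 gene that this rule takes is not reported here by name but stays in all counts. Rsad2, Oas1b and other members that did not pass are given by range or test. A few pathway genes high in sham replicate 3 were named after their values were seen. Socs1, Ifi27l1 and Ifnz were also named outside this rule.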

Additional observations from a re-analysis of the deposited data

Results flagged for a closer look

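For each of the 36 tested members and each group of 5 libraries, the highest and the lowest library were compared with the others by Dixon's criterion. Of 72 gene and group pairs, 8 had a library that stood apart, and chance does this in about 1 of 20 groups. In 7 of the 8 that library was sham replicate 3, always on the high side. Its CPM was 4.13 for Ifit3 (0.114 to 1.14 in the other sham libraries), 11.4 for Irf7 (4.12 to 5.37), 10.8 for Irgm2 (5.66 to 6.83), 6.84 for Isg15 (2.52 to 3.66), 2.97 for Mx2 (1.10 to 1.57), 11.9 for Oasl2 (4.92 to 6.92) and 4.39 for Usp18 (0.801 to 1.57). Its mean log2 CPM over the members, 3.36, also stood apart from the other sham libraries (2.49 to 2.73). The eighth pair was Irgm1 in TAC, where replicate 4 was low at 12.0 CPM, against 14.1 to 14.9 CPM in the other TAC libraries. These genes share libraries and move together, so these pairs are not independent of each other.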

How the results depend on the processing

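The count of members that rose was 21, between 16 and 29 when 1 library was left out, and between 20 and 28 under the other alternatives; none fell under any of them. Their median log2 fold change was 0.66, between 0.60 and 0.83 with 1 library left out. Of the 21 members, 16 kept their call under all 19 alternatives and 5 lost it under some: Gbp6, Ifih1, Irgm1, Oasl1 and Stat2. Of the 15 that did not pass, 10 passed under some alternative, and Gbp2, Ifi47, Igtp, Mx2 and Oas1b under none. Igtp was the only member whose direction turned, with values from -0.0763 to 0.332 when 1 library was left out: it was negative without sham replicate 1, sham replicate 5, TAC replicate 1 or TAC replicate 5. Scaling by library totals, without TMM factors, gave 1159 genes that fell (2040 with TMM) and 3257 that rose (2251 with TMM). The share of calls that were higher was then 73.8% (52.5% with TMM), the median over all genes was 0.11 (0.00 with TMM), and 27 members rose. With a replicate block, 21 members rose, the same 21, and 2113 of all tested genes rose and 1924 fell. Libraries with the same number did not deviate together: correlations of their deviations from the group means ran from -0.092 to 0.222, so the numbers were not taken to pair animals. Depth limits the lowest members: Mx1 and Oas3 could not be tested, and Ifit1, Ifit3 and Usp18 were among those that averaged under 3 CPM in both groups.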

Other observations

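Sham replicate 3 was also high in genes outside the interferon lists, named here after their values were seen. Among the 20 tested genes with the largest log2 difference from the other 4 sham libraries, 4 were members and 3 came from the pathway list: Nlrc5, which drives MHC class I genes (2.01), Iigp1, a GTPase (1.44), and Gbp5, a guanylate-binding protein (1.35). Of the other 13, Ect2, which directs the cleavage furrow, had 1.79, the chromosome-associated kinesin Kif4 1.70, Mki67, a marker of dividing cells, 1.69, and Fos, an immediate early gene, 1.45. No test was made of these values.

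Nlrc5, Iigp1 and Gbp5 did not pass between TAC and sham hearts. Nlrc5 had 4.39, 1.49, 2.41, 1.67 and 2.52 CPM in TAC, against 1.26, 2.56, 5.55, 0.572 and 1.03 CPM in sham. Sham replicate 3 was its highest library of all 10. The identifier of the Nlrc5 row has no match in GENCODE M21.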
